A study of Mus musculus with 6 samples.

Results

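The integrated stress response and the unfolded protein response were followed through 35 genes, chosen by name and function and matched to the Ensembl identifiers of the gene counts. They are 35 of 38293 genes listed, and 32 of them were among the 14396 genes with enough reads for a test. RNA came from sorted fetal liver (FL) cells without lineage markers and with surface c-Kit (Lin-cKit+), a fraction rich in hematopoietic stem and progenitor cells, of C57BL/6 embryos at E14.5. Libraries of 3 wt embryos were compared to libraries of 3 hnRNP L deficient embryos, which the study generated as VavCre+hnRNP L fl/fl, so that Cre under the Vav promoter deletes *Hnrnpl* in hematopoietic cells. The labels name fetal liver cells as the source but a whole embryo as the tissue, and they give the controls only as wild type. The study marks the wt samples as L fl/fl, and whether any carried Cre is not given in the sources used here. Each library was labelled as a single embryo. The first part of the embryo number was shared by wt replicate 1 and hnRNP L deficient replicate 1, and by hnRNP L deficient replicates 2 and 3, and what it marks is not stated. The replicates are numbered here only to name them, with values always given in the order 1 to 3.

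In the integrated stress response, kinases that sense heme, viral RNA, unfolded ER proteins or missing amino acids phosphorylate eIF2alpha, the substrate of the exchange factor eIF2B. General translation falls, while the mRNA of the transcription factor ATF4 is translated better, and ATF4 with its partners activates genes for amino acid import, serine and one-carbon synthesis and tRNA charging. In the unfolded protein response, PERK shares this route, while IRE1alpha with XBP1 and ATF6 raise ER chaperones and degradation factors. Both responses act largely through phosphorylation, splicing and protein cleavage, none of which is measured by counts of mRNA reads.

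Reads counted on genes numbered between 55952160 and 76157226 per library. Levels are given as CPM, the read count scaled to a library of common size after TMM normalization, at which 3 reads correspond to between 0.0402 and 0.0540 CPM. A gene was called when the edgeR quasi-likelihood test gave a Benjamini-Hochberg adjusted p under 0.05 over all tested genes, and fold changes are hnRNP L deficient over wt. *Hnrnpl* itself fell from 552, 531 and 528 to 242, 288 and 269.5 CPM (log2 fold change -1.01, standard error 0.08797, edgeR adjusted p = 0.00724). It was thus still at a fitted 49.7% of the wt level. The study names as possible that incompletely deleted cells with residual hnRNP L protein remained among those sequenced. The part of such cells in these libraries was not tested. The progenitor markers differed too, with 5 of 8 called lower, 0 called higher and all 8 log2 fold changes below 0. Among all tested genes 9.85% were called lower and 9.32% higher. The groups overlapped for *Ly6a*, *Gata2* and *Myb*, and 6 of the 8 markers were highest in wt replicate 2. *Kit*, which encodes the receptor used in the sort, had 423, 488 and 656 CPM among wt and 368, 325 and 330.1 CPM among hnRNP L deficient embryos (log2 fold change -0.62, standard error 0.16, edgeR adjusted p = 0.0402). *Flt3* (log2 fold change -3.35), *Cd34* (-2.21), *Cd48* (-1.64) and *Meis1* (-1.07) were the others called, and the 8 markers summed to between 1063 and 1494 CPM in wt and between 844 and 957 CPM in hnRNP L deficient libraries. A wt library, replicate 2, stood apart. The 10 granulocyte markers summed to 9032 CPM in it, against 565 and 1477 CPM in wt replicates 1 and 3 and 241, 1100 and 1179 CPM after hnRNP L deletion. *Mpo* alone had 5615 CPM in wt replicate 2. While 7 of the 10 were highest there, *Ltf*, *Ngp* and *Lcn2* were highest in hnRNP L deficient replicate 3. The 8 B-lymphoid markers summed to 5.56, 25.7 and 6.74 CPM among wt and 1.90, 3.35 and 2.13 CPM among hnRNP L deficient embryos. The 10 macrophage markers summed to between 39.6 and 272 CPM among wt and between 11.3 and 57.2 CPM among hnRNP L deficient embryos. The 11 hepatocyte markers were lower in each hnRNP L deficient library than in each wt library, with sums of 122 to 264 CPM in wt and 26.6 to 81.6 CPM in hnRNP L deficient libraries. The part of these cells, and of the shift in progenitor markers, in the results that follow was not tested, and in bulk RNA fewer cells of a type cannot be told apart from less RNA per cell. Counts of calls are therefore also given without wt replicate 2.

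The genes called higher lay in the ATF4 arm of the response. In the ER arm 0 of 6 tested genes were called higher, too few genes to set apart from the 9.32% of all tested genes. Of the 32 tested genes, 8 were called higher in hnRNP L deficient libraries, namely *Atf4*, *Trib3*, *Nupr1*, *Psat1*, *Mthfd2*, *Cth*, *Slc7a5* and *Slc3a2*. *Eif2ak4* and *Atf6* were called lower, and 22 genes were not called. Over all tested genes 9.32% were called higher and 9.85% lower, against 25% and 6.25% of the tested stress response genes. Each hnRNP L deficient library lay above each wt library for 14 of the 32 genes and below each wt library for 7, while over all tested genes 22.7% were separated upwards and 22.7% downwards. Their median log2 fold change was 0.20, beside -0.026 over all tested genes. Without wt replicate 2, edgeR called 13 of the 32 genes higher and 2 lower, in a fit that called 11.4% of all tested genes higher and 12.7% lower. The log2 fold changes were then 0.48 for *Atf4*, 1.79 for *Trib3*, 2.32 for *Nupr1*, 0.54 for *Psat1*, 0.99 for *Mthfd2*, 0.74 for *Cth*, 0.45 for *Slc7a5*, 0.52 for *Slc3a2* and -0.58 for *Eif2ak4*, with edgeR adjusted p from 0.00365 to 0.0342, and -0.20 for *Atf6* without a call. Without wt replicate 1 edgeR called 11 higher and 5 lower, beside 15.7% and 16.8% of all tested genes, so that the 5 lower calls are near that background. DESeq2 on all 6 libraries called 12 genes higher and 4 lower, beside 12.5% and 14.5% of all genes with an adjusted p. Leaving out wt replicate 3 or any single hnRNP L deficient library left 0 of the 32 genes called by edgeR, in fits where between 5 and 17 genes were called in all. In those 4 fits between 10 and 12 of the 32 genes were higher and between 3 and 6 lower at an unadjusted p under 0.05. The share of all tested genes at that unadjusted threshold is not given here, so these counts cannot be set apart from it. Over all 6 sets of 5 libraries, DESeq2 called between 8 and 15 higher and between 1 and 7 lower, the 8 genes above always among the former, and between 7.37% and 18% of all genes higher and between 9.61% and 19% lower.

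**Figure D1:**
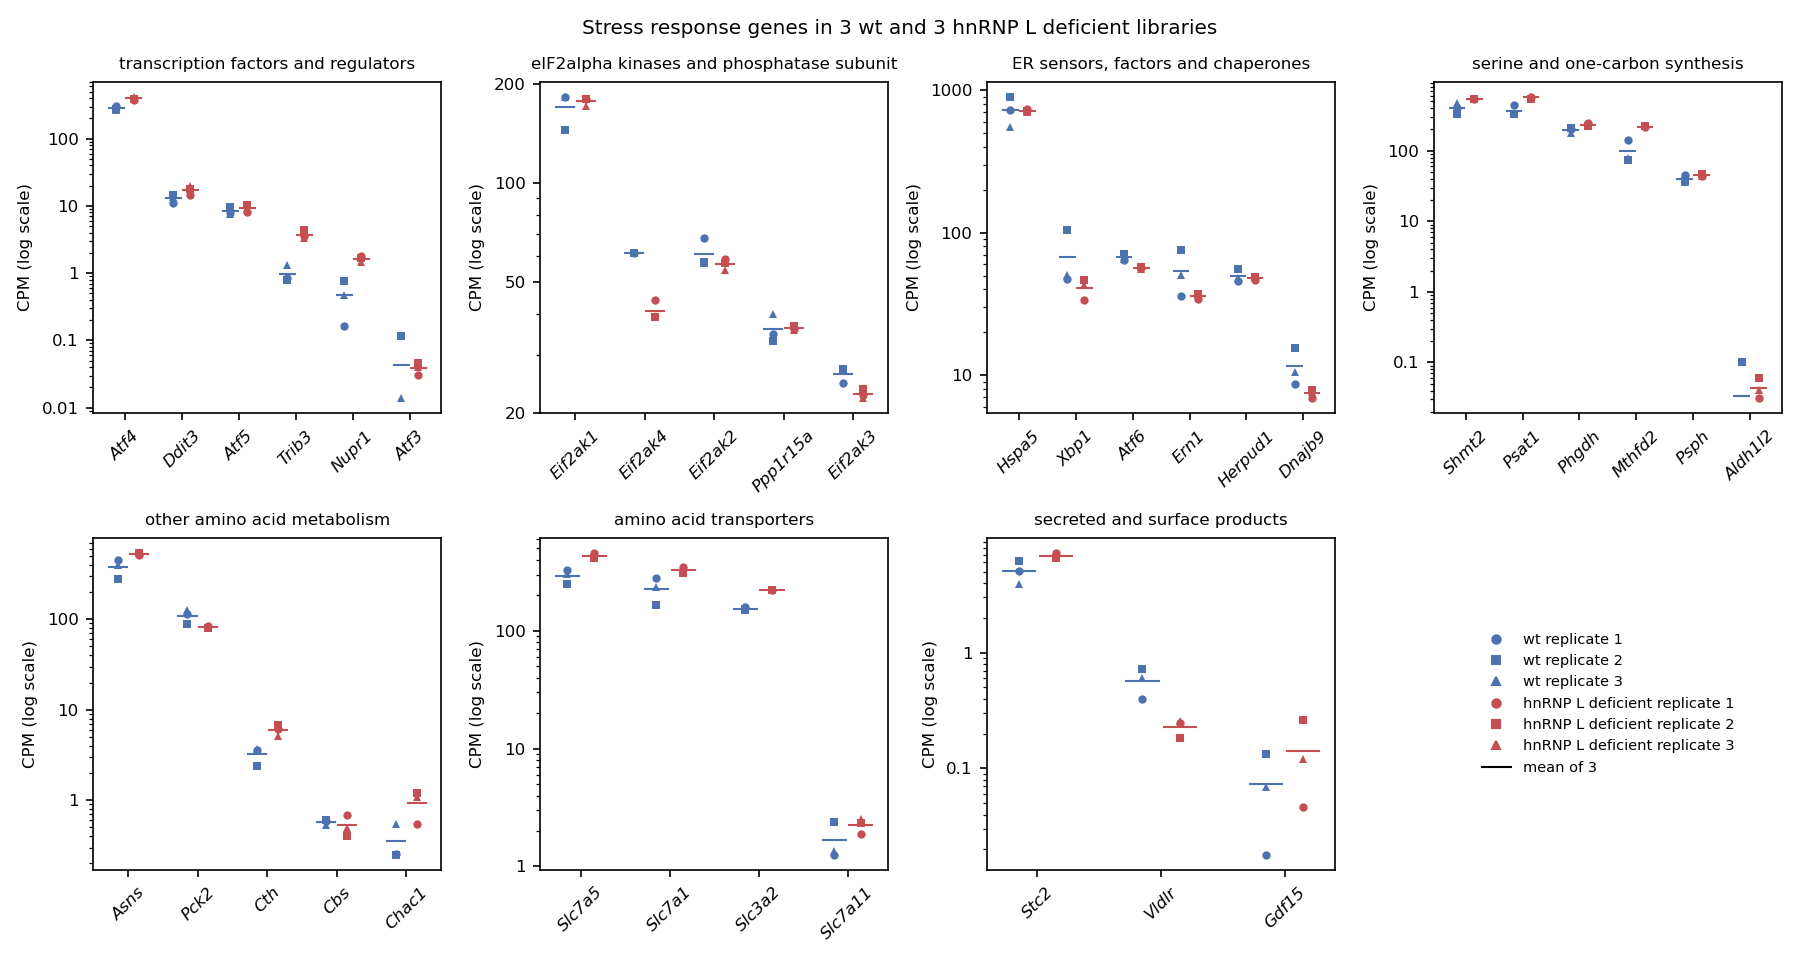
CPM (log scale) of the 35 genes in 3 wt (blue) and 3 hnRNP L deficient libraries (red), in 7 panels by role, with horizontal lines for the mean of 3 libraries. The 3 values of 0 (1 wt library of *Atf3* and 2 wt libraries of *Aldh1l2*) cannot be drawn on a log axis. *Atf4*, *Trib3*, *Mthfd2* and *Slc3a2* were higher and *Eif2ak4* lower in all 3 hnRNP L deficient libraries than in any wt library, while *Xbp1*, *Ern1* and *Hspa5* were highest in wt replicate 2.

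Among the transcription factors and their regulators, 3 of 5 tested genes were called higher and 0 lower, beside 9.32% and 9.85% of all tested genes. *Atf4* (ENSMUSG00000042406, chromosome 15 from 80255184 to 80257541 of GRCm38) encodes the factor at the centre of the response. It had 306, 280.3 and 267 CPM among wt and 382, 391 and 423 CPM among hnRNP L deficient embryos (log2 fold change 0.49, standard error 0.0851, edgeR adjusted p = 0.0168). Every hnRNP L deficient library thus exceeded every wt library, in a gene that was already among the most abundant of the 35. *Trib3* (ENSMUSG00000032715, chromosome 2 from 152337422 to 152344032) encodes a pseudokinase that is induced by ATF4 and CHOP and restrains them. It had 0.846, 0.784 and 1.31 CPM among wt and 3.56, 4.31 and 3.35 CPM among hnRNP L deficient embryos (log2 fold change 1.93, standard error 0.28, edgeR adjusted p = 0.0138). This was the largest fold change of the 32 genes, at 3.805-fold, and the groups were well apart. *Nupr1* (ENSMUSG00000030717, chromosome 7 from 126623249 to 126630861), which encodes a small stress-inducible chromatin protein, had 0.162, 0.767 and 0.482 CPM among wt and 1.77, 1.698 and 1.47 CPM among hnRNP L deficient embryos (log2 fold change 1.80, standard error 0.51, edgeR adjusted p = 0.04999). The groups did not overlap, but wt replicate 1 was far below the other wt libraries and the call lay at the threshold. It was lost with total count scaling (edgeR adjusted p = 0.0615) and without robust estimation (edgeR adjusted p = 0.0523), and was kept without wt replicate 2.

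*Ddit3*, which encodes the pro-apoptotic factor CHOP, had 11.1, 14.5 and 13.8 CPM among wt and 14.6, 17.96 and 19.7 CPM among hnRNP L deficient embryos (log2 fold change 0.41, standard error 0.16, edgeR adjusted p = 0.114). Each hnRNP L deficient library was above each wt library, although the gap was narrow and the gene was not called. *Atf5*, an ATF4 relative translated in the same manner, had 7.83, 9.57 and 7.62 CPM among wt and 8.26, 10.2 and 9.23 CPM among hnRNP L deficient embryos, and the groups overlapped (log2 fold change 0.15, standard error 0.16, edgeR adjusted p = 0.534). *Atf3*, an early stress-induced repressor, was at most at 0.117 CPM in every library, from 0 to 7 reads, and was not tested. *Ddit3* and *Atf5* are among 11 of the 35 genes that share exon bases with genes on the opposite strand, and whether strand was used in the counting is not given in the sources used here. The others are *Eif2ak1*, *Eif2ak2*, *Eif2ak3*, *Ppp1r15a*, *Dnajb9*, *Psph*, *Shmt2*, *Aldh1l2* and *Pck2*, and 0 of the 11 were called by edgeR on all 6 libraries. The largest shared stretches take 14.1% of the exon bases of *Aldh1l2*, 10.4% of *Psph*, 8.59% of *Eif2ak1* and 8.05% of *Eif2ak3*. *Ddit3* also shares 6.13% with another gene model of the same name on its own strand.

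Of the 4 eIF2alpha kinases, edgeR on all 6 libraries called that for amino acid shortage, as lower, and not the other 3. Among all tested genes 9.85% were called lower. *Eif2ak4* (ENSMUSG00000005102, chromosome 2 from 118388618 to 118475234) encodes GCN2, which binds uncharged tRNA. It had 61.3, 61.4 and 61.2 CPM among wt and 44.1, 39.1 and 39.5 CPM among hnRNP L deficient embryos (log2 fold change -0.58, standard error 0.0751, edgeR adjusted p = 0.0123). The 3 wt libraries were nearly equal and all 3 hnRNP L deficient libraries were below them, at a fitted 66.7% of the wt level. *Eif2ak3*, which encodes the ER kinase PERK, had 24.8, 27.3 and 27.00 CPM among wt and 22.7, 23.7 and 22.2 CPM among hnRNP L deficient embryos. Its groups did not overlap, but it was not called (log2 fold change -0.21, standard error 0.0891, edgeR adjusted p = 0.138). *Eif2ak1*, which encodes the heme-regulated kinase HRI of erythroid cells, had 183, 145 and 182 CPM among wt and 180.0, 180.3 and 171 CPM among hnRNP L deficient embryos (log2 fold change 0.06, standard error 0.10, edgeR adjusted p = 0.715). *Eif2ak2*, which encodes the double-stranded RNA kinase PKR, had 68.1, 57.6 and 57.1 CPM among wt and 58.8, 57.1 and 54.6 CPM among hnRNP L deficient embryos (log2 fold change -0.10, standard error 0.0894, edgeR adjusted p = 0.439). The groups overlapped for both of these kinases, and *Eif2ak1* was the most abundant kinase per length of exon, at 30.01 CPM per kb in wt, followed by *Eif2ak2* at 11.9, *Eif2ak4* at 8.22 and *Eif2ak3* at 4.38, with no overlap of the wt ranges among these kinases. *Ppp1r15a*, which encodes the inducible GADD34 subunit of the eIF2alpha phosphatase and is a target of the ATF4 and CHOP route, stayed between 33.2 and 40.2 CPM in all 6 libraries (log2 fold change 0.01, standard error 0.0938, edgeR adjusted p = 0.952).

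None of the 6 genes of the ER arm was called higher and 1 was called lower, beside 9.32% and 9.85% of all tested genes. All 6 had log2 fold changes below 0, and all 6 were at their highest in wt replicate 2. In that library 7 of 10 granulocyte, 7 of 10 macrophage and 8 of 8 B-lymphoid markers were also at their highest. So were 6 of 8 progenitor, 5 of 6 mast cell and 4 of 7 megakaryocyte markers. Fewer were highest there among erythroid (4 of 12), endothelial and stromal (2 of 8) and hepatocyte markers (0 of 11). The part of any of these cell types in the levels of the ER genes was not tested. *Atf6* (ENSMUSG00000026663, chromosome 1 from 170704674 to 170867771) encodes the ER sensor that is cleaved in the Golgi. It had 64.7, 70.97 and 65.5 CPM among wt and 56.8, 57.4 and 56.05 CPM among hnRNP L deficient embryos (log2 fold change -0.24, standard error 0.0677, edgeR adjusted p = 0.0484). The groups were apart but close, and *Atf6* was not called without wt replicate 2 (edgeR adjusted p = 0.0551) or by DESeq2 (adjusted p = 0.0576). *Ern1*, which encodes IRE1alpha, had 35.8, 76.1 and 50.2 CPM among wt and 34.00, 37.3 and 36.5 CPM among hnRNP L deficient embryos. The groups overlapped, since wt replicate 1 was as low as the hnRNP L deficient libraries (log2 fold change -0.59, standard error 0.25, edgeR adjusted p = 0.139). *Xbp1*, which encodes the factor whose mRNA is spliced by IRE1alpha, had 47.5, 104 and 50.3 CPM among wt and 33.9, 46.5 and 42.6 CPM among hnRNP L deficient embryos. All hnRNP L deficient libraries were below all wt libraries, but without a call (log2 fold change -0.71, standard error 0.33, edgeR adjusted p = 0.167), and wt replicate 2 was well above the other wt libraries. *Dnajb9*, a J-domain co-chaperone and classical XBP1 target, had 8.64, 15.5 and 10.5 CPM among wt and 6.896, 7.94 and 7.68 CPM among hnRNP L deficient embryos (log2 fold change -0.62, standard error 0.23, edgeR adjusted p = 0.0938). Without wt replicate 2 the log2 fold changes shrank to -0.26 for *Ern1*, -0.25 for *Xbp1* and -0.35 for *Dnajb9*.

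*Hspa5*, which encodes the main ER chaperone BiP, had 727, 899 and 551 CPM among wt and 739, 711 and 697 CPM among hnRNP L deficient embryos (log2 fold change -0.02, standard error 0.17, edgeR adjusted p = 0.946). The wt libraries spanned both sides of the hnRNP L deficient ones, and the sign turned without wt replicate 2 (log2 fold change 0.17, edgeR adjusted p = 0.35). *Hspa5* was the most abundant of the 35 genes per length of exon in wt, at 172 CPM per kb with a range of 130.2 to 213. *Herpud1*, an ER membrane protein of degradation induced by both arms, had 45.96, 55.6 and 47.9 CPM among wt and 46.3, 49.2 and 49.1 CPM among hnRNP L deficient embryos, which overlapped (log2 fold change -0.05, standard error 0.0915, edgeR adjusted p = 0.738).

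Genes of serine and one-carbon synthesis had log2 fold changes above 0 in 5 of 5 tested cases. Of these, 2 were called higher and 0 lower, beside 9.32% and 9.85% of all tested genes. *Psat1* (ENSMUSG00000024640, chromosome 19 from 15904678 to 15947337), the transaminase of serine synthesis, had 445, 328 and 341 CPM among wt and 578, 545 and 584 CPM among hnRNP L deficient embryos (log2 fold change 0.62, standard error 0.13, edgeR adjusted p = 0.0234). *Mthfd2* (ENSMUSG00000005667, chromosome 6 from 83305691 to 83325908), the mitochondrial methylene-tetrahydrofolate dehydrogenase, had 142, 74.2 and 79.6 CPM among wt and 215, 222 and 223 CPM among hnRNP L deficient embryos (log2 fold change 1.16, standard error 0.25, edgeR adjusted p = 0.027). The hnRNP L deficient libraries were close together at 2.23-fold the wt level, whereas wt replicate 1 was well above the other wt libraries. *Phgdh*, the first enzyme of serine synthesis, had 206, 209 and 179 CPM among wt and 245, 221 and 232 CPM among hnRNP L deficient embryos and was separated without a call (log2 fold change 0.24, standard error 0.0858, edgeR adjusted p = 0.0922). *Shmt2*, the mitochondrial serine hydroxymethyltransferase, had 399.5, 327 and 468 CPM among wt and 540.3, 533 and 537 CPM among hnRNP L deficient embryos. It was likewise separated and just missed the call (log2 fold change 0.43, standard error 0.13, edgeR adjusted p = 0.0582). *Psph*, the last enzyme of serine synthesis, overlapped between groups (log2 fold change 0.16, standard error 0.10, edgeR adjusted p = 0.294). *Aldh1l2*, the mitochondrial formyl-tetrahydrofolate dehydrogenase, had between 0 and 6 reads per library and was not tested.

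Of 5 further genes of amino acid metabolism, 1 was called higher, *Cth*, and 0 lower, beside 9.32% and 9.85% of all tested genes. *Cth* (ENSMUSG00000028179, chromosome 3 from 157894248 to 157925077), which encodes the cystathionine gamma-lyase of cysteine synthesis, had 3.55, 2.42 and 3.65 CPM among wt and 6.104, 6.81 and 5.16 CPM among hnRNP L deficient embryos (log2 fold change 0.91, standard error 0.23, edgeR adjusted p = 0.0351). The groups were separate. *Cbs*, the enzyme before it in the same route, was near the lower end of what could be tested and overlapped, at 0.577 ± 0.03505 CPM in wt and 0.526 ± 0.145 CPM in hnRNP L deficient libraries (SD, n = 3, log2 fold change -0.13, edgeR adjusted p = 0.808). *Asns*, which encodes asparagine synthetase and is a classical ATF4 target, had 453, 278 and 395 CPM among wt and 509, 541 and 541 CPM among hnRNP L deficient embryos. All 3 hnRNP L deficient libraries were higher, but wt libraries differed widely and the gene was not called (log2 fold change 0.50, standard error 0.17, edgeR adjusted p = 0.0786).

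*Chac1*, a glutathione-degrading enzyme and an ATF4 and CHOP target, had 0.252, 0.2501 and 0.551 CPM among wt and 0.544, 1.21 and 1.07 CPM among hnRNP L deficient embryos. It had the largest log2 fold change without a call (log2 fold change 1.41, standard error 0.49, edgeR adjusted p = 0.0803), and hnRNP L deficient replicate 1 was level with the highest wt library. *Pck2*, the mitochondrial PEP carboxykinase, is also a known ATF4 target but lay on the other side. It had 115, 89.2 and 126 CPM among wt and 84.7, 80.9 and 79.5 CPM among hnRNP L deficient embryos, and all hnRNP L deficient libraries were below all wt libraries without reaching the call (log2 fold change -0.43, standard error 0.13, edgeR adjusted p = 0.0535).

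Of the 4 amino acid transporters 2 were called higher and 0 lower, beside 9.32% and 9.85% of all tested genes. All 4 had log2 fold changes above 0, from 0.44 to 0.56. The 2 called were both chains of the LAT1 exchanger of large neutral amino acids. *Slc7a5* (ENSMUSG00000040010, chromosome 8 from 121881150 to 121907694), its transporting chain, had 328, 249 and 304 CPM among wt and 458, 417 and 422 CPM among hnRNP L deficient embryos (log2 fold change 0.56, standard error 0.11, edgeR adjusted p = 0.023). *Slc3a2* (ENSMUSG00000010095, chromosome 19 from 8706882 to 8723369), the shared heavy chain CD98, had 159.7, 153 and 150.1 CPM among wt and 222, 223 and 222 CPM among hnRNP L deficient embryos (log2 fold change 0.53, standard error 0.0635, edgeR adjusted p = 0.0102). *Slc3a2* had the smallest adjusted p of the 35 genes, and its 3 hnRNP L deficient libraries were within 1 CPM of each other. *Slc7a1*, the cationic amino acid carrier CAT-1, had 279.6, 166 and 235 CPM among wt and 348, 309 and 326 CPM among hnRNP L deficient embryos and was separated without a call (log2 fold change 0.53, standard error 0.18, edgeR adjusted p = 0.0763). *Slc7a11*, the cystine carrier that also pairs with CD98, was low at 1.67 ± 0.635 CPM in wt and 2.26 ± 0.343 CPM in hnRNP L deficient libraries (SD, n = 3) and overlapped (log2 fold change 0.44, standard error 0.32, edgeR adjusted p = 0.35).

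Of the secreted and surface products 0 of 2 tested genes were called by edgeR on all 6 libraries. At an unadjusted p under 0.05, 0 were higher and 1 was lower, with no share of all tested genes given beside them. The limma-voom fit called both, *Stc2* higher (log2 fold change 0.65, adjusted p = 0.0175) and *Vldlr* lower (log2 fold change -1.32, adjusted p = 0.0249). That fit called 17.9% of all tested genes higher and 19.3% lower. *Stc2*, a secreted glycoprotein induced by ATF4, was at 5.06 ± 1.16 CPM in wt and 6.87 ± 0.348 CPM in hnRNP L deficient libraries (SD, n = 3), with the groups just apart (log2 fold change 0.44, standard error 0.21, edgeR adjusted p = 0.162). *Vldlr*, a lipoprotein receptor induced by PERK and ATF4, was low throughout at 0.573 ± 0.163 CPM in wt and 0.229 ± 0.0393 CPM in hnRNP L deficient libraries (SD, n = 3) and lower in all hnRNP L deficient libraries, without a call (log2 fold change -1.32, standard error 0.40, edgeR adjusted p = 0.0598). *Gdf15*, a stress cytokine and ATF4 and CHOP target, had between 1 and 17 reads per library and was not tested.

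**Figure D2:**
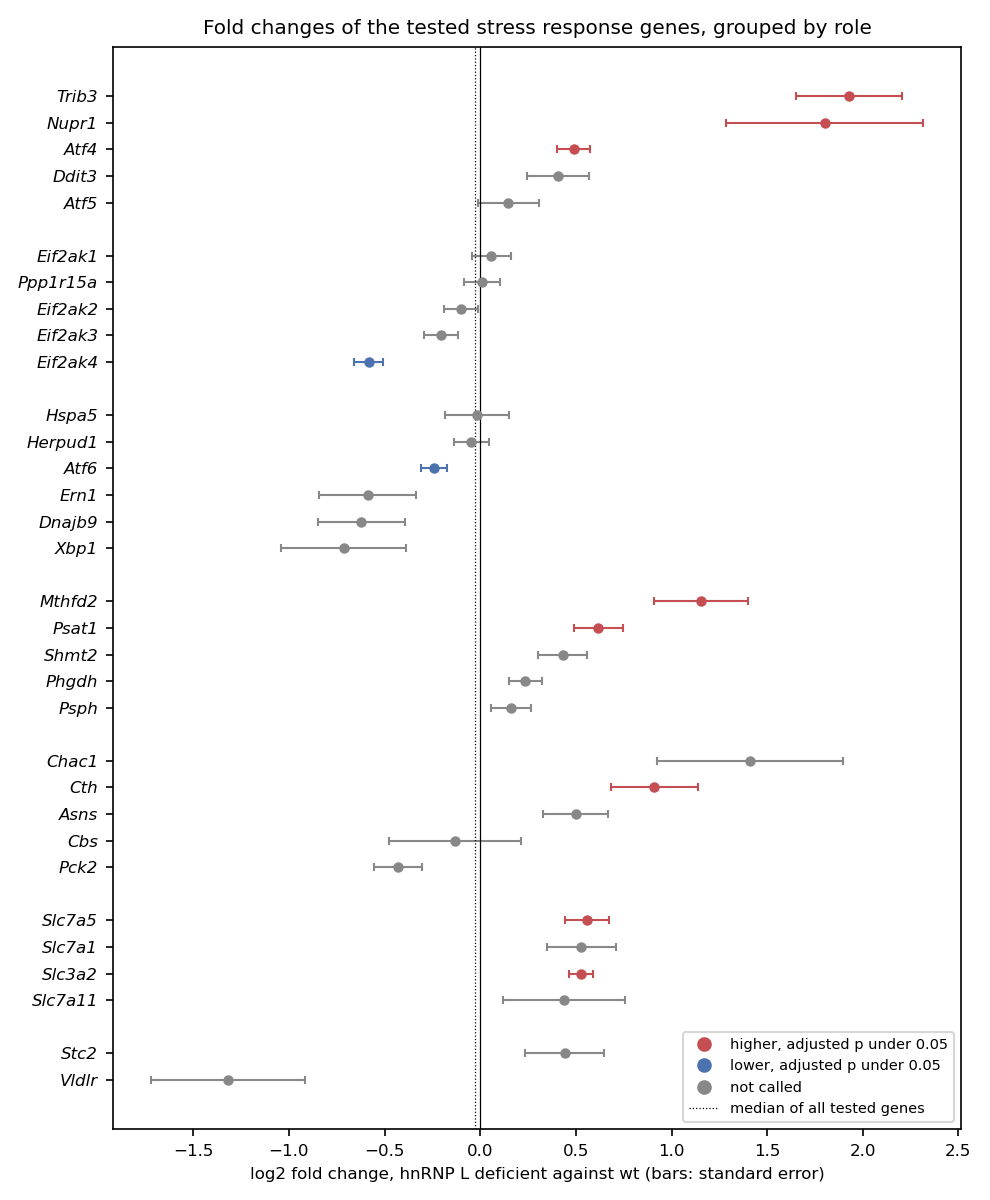
Log2 fold changes of the 32 tested genes, hnRNP L deficient over wt, with standard errors as bars, in 7 groups by role. Red points are the 8 genes called higher, blue points *Eif2ak4* and *Atf6*, which were called lower, and grey points the 22 genes not called, and the dotted line at -0.026 is the median of all tested genes.

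The levels of these genes spanned a wide range. Per length of exon, *Hspa5*, *Asns*, *Shmt2* and *Atf4* led the wt libraries at 172, 137, 128 and 120.5 CPM per kb, and neighbours in this order overlapped in their ranges up to *Atf4*, which lay clear of *Psat1* at 87.2. In the hnRNP L deficient libraries *Asns* stood at 194, *Shmt2* at 173, *Hspa5* and *Atf4* at 169 and *Psat1* at 134 CPM per kb. *Trib3*, *Chac1* and *Nupr1*, the genes with the largest fold changes, were each below 1 CPM per kb in wt. Summed over the group, the 4 transporters had 768, 569.7 and 690.2 CPM among wt and 1030, 951.6 and 972 CPM among hnRNP L deficient embryos.

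The surroundings of the response were followed in 121 further genes of the same pathways, in 7 lists. Of these, 119 were tested, 22 were called higher and 1 lower, or 18.5% and 0.840%, beside 9.32% and 9.85% of all tested genes. Without wt replicate 2, edgeR called 32 higher and 4 lower, beside 11.4% and 12.7% of all tested genes, and without wt replicate 1 it called 40 higher and 9 lower, beside 15.7% and 16.8%. In the 4 fits without wt replicate 3 or without a hnRNP L deficient library, 0 were called by edgeR, where between 5 and 17 of all genes were called. DESeq2 on those sets called between 18 and 27 higher and between 1 and 6 lower. Of all genes with an adjusted p it called between 7.37% and 11.7% higher and between 9.61% and 13.2% lower.

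Cytosolic aminoacyl-tRNA synthetases charge tRNAs, and many are ATF4 targets. All 20 were tested, 9 were called higher, 0 were called lower and 16 had every hnRNP L deficient library above every wt library, with a median log2 fold change of 0.34. These are 45% called higher, beside 9.32% of all tested genes, of which 22.7% were separated upwards. The 4 with the largest changes charge threonine, tryptophan, alanine and serine. *Tars* had 228, 168 and 189 CPM among wt and 301, 282 and 277 CPM among hnRNP L deficient embryos (log2 fold change 0.56, standard error 0.12, edgeR adjusted p = 0.0248). *Wars* (log2 fold change 0.56, standard error 0.12, edgeR adjusted p = 0.0238), *Aars* (log2 fold change 0.55, standard error 0.13, edgeR adjusted p = 0.0297) and *Sars* (log2 fold change 0.52, standard error 0.11, edgeR adjusted p = 0.0227) were alike in size and separated throughout. *Vars* was the only one of the 20 with a log2 fold change below 0 (log2 fold change -0.10, standard error 0.10, edgeR adjusted p = 0.528). In 19 of 20 synthetases wt replicate 2 was the lowest library. Without it 11 were called higher, beside 11.4% of all tested genes, and without wt replicate 1 17 were, beside 15.7%.

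The list of eIF2, eIF2B and their regulators had 5 genes called higher of 16 tested, or 31.2%, and 0 lower, beside 9.32% and 9.85% of all tested genes. The 5 were the 5 subunits of eIF2B, the guanine nucleotide exchange factor that phosphorylated eIF2alpha inhibits. *Eif2b3* had 77.1, 49.2 and 58.9 CPM among wt and 93.4, 90.96 and 99.2 CPM among hnRNP L deficient embryos (log2 fold change 0.62, standard error 0.16, edgeR adjusted p = 0.0366). *Eif2b1* (log2 fold change 0.57, standard error 0.14, edgeR adjusted p = 0.0324), *Eif2b4* (log2 fold change 0.46, standard error 0.0726, edgeR adjusted p = 0.0148) and *Eif2b5* (log2 fold change 0.45, standard error 0.0944, edgeR adjusted p = 0.0247) were likewise separated between groups. The log2 fold change of *Eif2b2* was 0.43 (edgeR adjusted p = 0.0195). The summed level of the 5 subunits was 556, 429 and 476 CPM among wt and 703, 673 and 690.2 CPM among hnRNP L deficient embryos. In all 5 subunits wt replicate 2 was the lowest library. All 5 were called by DESeq2 also when any library was left out, where between 7.37% and 18% of all genes were called higher. Without wt replicate 2 edgeR called the same 5 of the 16 genes higher and 0 lower, beside 11.4% and 12.7% of all tested genes. *Eif2s1*, which encodes eIF2alpha itself, was separated upwards without a call (log2 fold change 0.36, standard error 0.15, edgeR adjusted p = 0.123), as was *Gcn1l1*, whose product activates GCN2 on ribosomes (log2 fold change 0.42, standard error 0.16, edgeR adjusted p = 0.108).

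**Figure D3:**
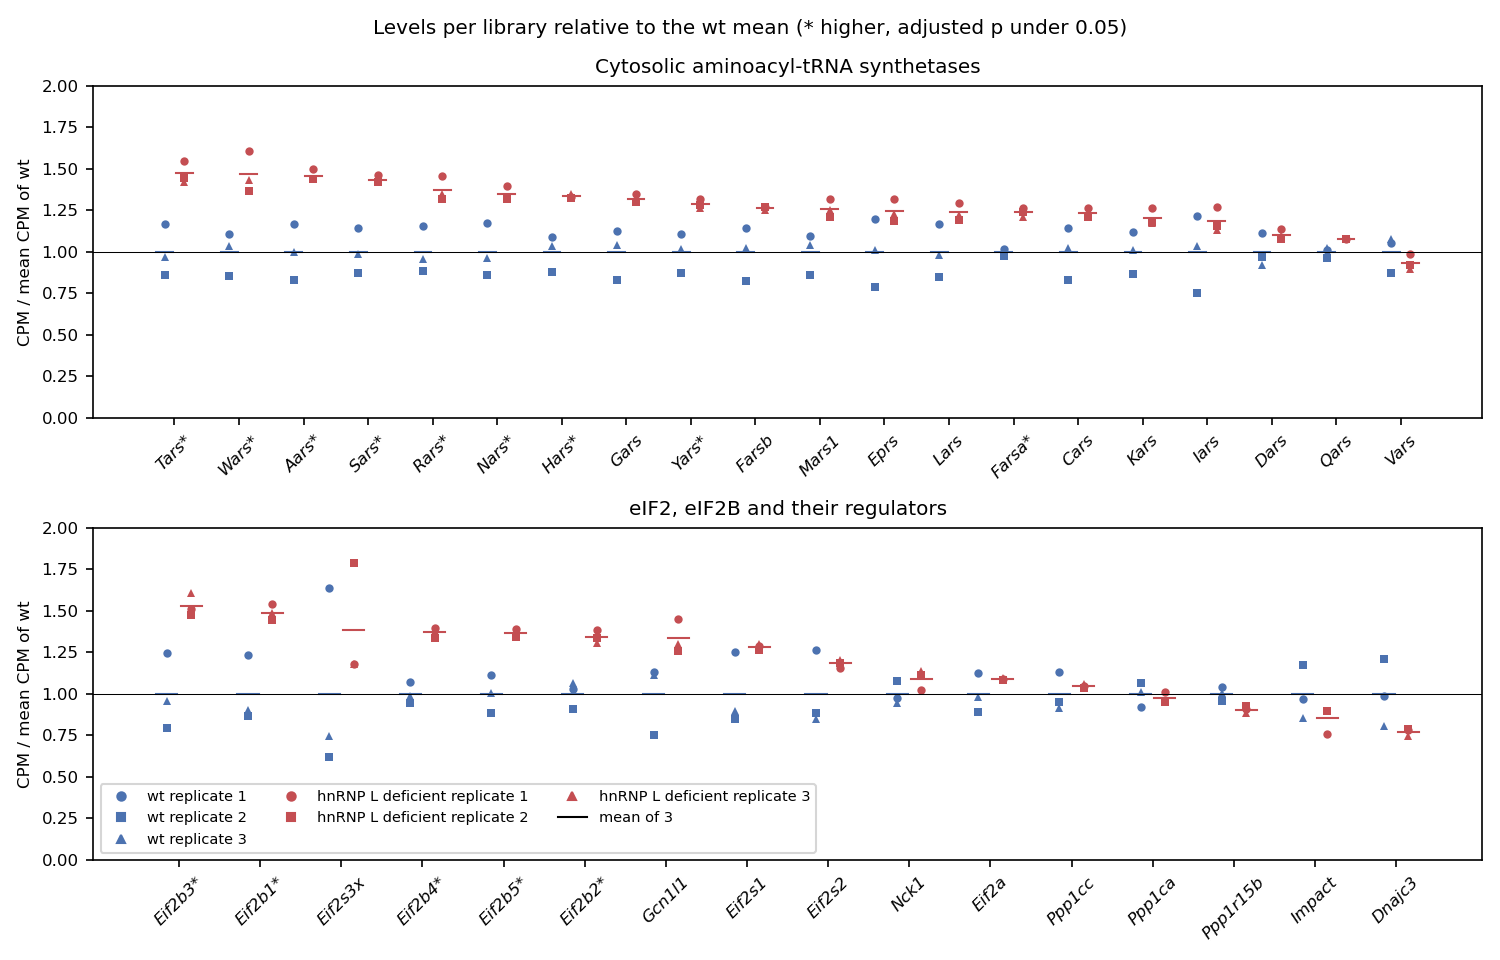
Level in each library relative to the wt mean (linear scale) for the 20 cytosolic aminoacyl-tRNA synthetases (top) and 16 genes of eIF2, eIF2B and their regulators (bottom), with wt in blue, hnRNP L deficient in red, lines for means of 3 and asterisks for genes called higher. The 9 called synthetases and the 5 eIF2B subunits lie above every wt library in all 3 hnRNP L deficient libraries. The lowest library is wt replicate 2 (blue squares) for 19 synthetases and for the 5 eIF2B subunits.

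Of 20 further ATF4 targets, 4 were called higher and 0 lower, or 20% and 0% beside 9.32% and 9.85% of all tested genes, and the median log2 fold change was 0.07. Log2 fold changes were above 0 for 12 and below 0 for 8. Groups were separated upwards for 6 and downwards for 2, beside 22.7% of all tested genes each way. The 2 were *Slc38a2* (log2 fold change -0.19) and *Map1lc3b* (-0.37), both without a call. *Nfil3* (-1.80) and *Jdp2* (-1.60) fell further, but their groups overlapped and neither was called. *Ddit4*, which encodes the mTORC1 inhibitor REDD1, had 1.01, 2.38 and 2.19 CPM among wt and 10.3, 13.95 and 14.8 CPM among hnRNP L deficient embryos (log2 fold change 2.80, standard error 0.35, edgeR adjusted p = 0.011), at 6.98-fold the wt level. *Slc7a3*, a cationic amino acid carrier, had 0.576, 0.667 and 0.798 CPM among wt and 1.99, 1.79 and 1.82 CPM among hnRNP L deficient embryos (log2 fold change 1.45, standard error 0.26, edgeR adjusted p = 0.0174). *Sesn2*, which encodes the leucine sensor Sestrin2, had 30.3, 23.6 and 35.7 CPM among wt and 55.99, 53.2 and 54.3 CPM among hnRNP L deficient embryos (log2 fold change 0.87, standard error 0.15, edgeR adjusted p = 0.0159). All 3 were well apart between the groups, and *Ddit4* and *Sesn2* are also known targets of p53. *Eif4ebp1*, which encodes the translation repressor 4E-BP1, was called with a smaller change (log2 fold change 0.34, standard error 0.0935, edgeR adjusted p = 0.0452). Without wt replicate 2 edgeR called 3 of the 20 higher and 1 lower, beside 11.4% and 12.7% of all tested genes. *Eif4ebp1* then lost its call and *Slc38a2* was called lower. Without wt replicate 1 edgeR called 3 higher and 3 lower, beside 15.7% and 16.8%.

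The 18 ER folding chaperones and oxidases had 0 called higher and 0 called lower by edgeR, beside 9.32% and 9.85% of all tested genes. Their median log2 fold change was -0.09. At an unadjusted p under 0.05, 1 was higher and 2 were lower, with no share of all tested genes given beside them. In 15 of the 18, wt replicate 2 was the highest library. Without it edgeR called 5 of the 18 higher, *Dnajb11*, *Hyou1*, *Manf*, *P4hb* and *Sdf2l1*, and 0 lower, beside 11.4% and 12.7% of all tested genes. DESeq2 on all 6 libraries called 1 higher and 2 lower, beside 12.5% and 14.5% of all genes with an adjusted p. With limma-voom 7 were called higher and 2 lower, beside 17.9% and 19.3% of all tested genes. *Calr*, the calcium-binding lectin chaperone calreticulin, had 882, 1648 and 806 CPM among wt and 898, 880.1 and 877 CPM among hnRNP L deficient embryos, and *Hsp90b1*, the ER chaperone GRP94, had 831, 1080.4 and 600.0 CPM among wt and 757, 731 and 701 CPM among hnRNP L deficient embryos, so that in both the hnRNP L deficient libraries lay within the wt range. ER-associated degradation and UPR processing had 3 called higher and 1 lower of 21 tested, or 14.3% and 4.76%, beside 9.32% and 9.85% of all tested genes. *Nploc4* (log2 fold change 0.42, standard error 0.0868, edgeR adjusted p = 0.0236) and *Ufd1l* (log2 fold change 0.35, standard error 0.0889, edgeR adjusted p = 0.0374) encode the p97 cofactor pair that extracts ubiquitinated proteins, and *Atf6b* (log2 fold change 0.41, standard error 0.0814, edgeR adjusted p = 0.0216) encodes the paralog of ATF6. *Atf6b* had 88.7, 101 and 87.00 CPM among wt and 127, 119 and 123 CPM among hnRNP L deficient embryos, the opposite direction to *Atf6*. *Erlec1*, an ER lectin of degradation, was the gene called lower (log2 fold change -0.69, standard error 0.17, edgeR adjusted p = 0.0345). Without wt replicate 2 edgeR called 4 of the 21 higher and 2 lower, beside 11.4% and 12.7% of all tested genes.

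No gene of the folate cycle list was called by edgeR among 15 tested, beside 9.32% called higher and 9.85% called lower of all tested genes. The median log2 fold change was 0.15. At an unadjusted p under 0.05, 5 were higher and 1 was lower, with no share of all tested genes given beside them. DESeq2 called 3 of the 15 higher and 0 lower, beside 12.5% and 14.5% of all genes with an adjusted p. With limma-voom 6 were called higher and 2 lower, beside 17.9% and 19.3% of all tested genes. Without wt replicate 2 edgeR called 2 higher and 0 lower, beside 11.4% and 12.7%. Of the 10 tested genes of the mitochondrial stress relay, a list that also counts *Eif2ak1*, 1 was called higher, or 10%, near the 9.32% of all tested genes. This was *Hspa9*, the mitochondrial chaperone mortalin, with 1119, 837 and 909 CPM among wt and 1392, 1307 and 1329.9 CPM among hnRNP L deficient embryos (log2 fold change 0.49, standard error 0.12, edgeR adjusted p = 0.0326). *Oma1*, the protease of the relay, stayed between 26.9 and 30.8 CPM in all libraries (log2 fold change 0.02, standard error 0.0888, edgeR adjusted p = 0.896). Without wt replicate 2 edgeR called 2 of the 10 relay genes higher and 1 lower, beside 11.4% and 12.7% of all tested genes.

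**Figure D4:**
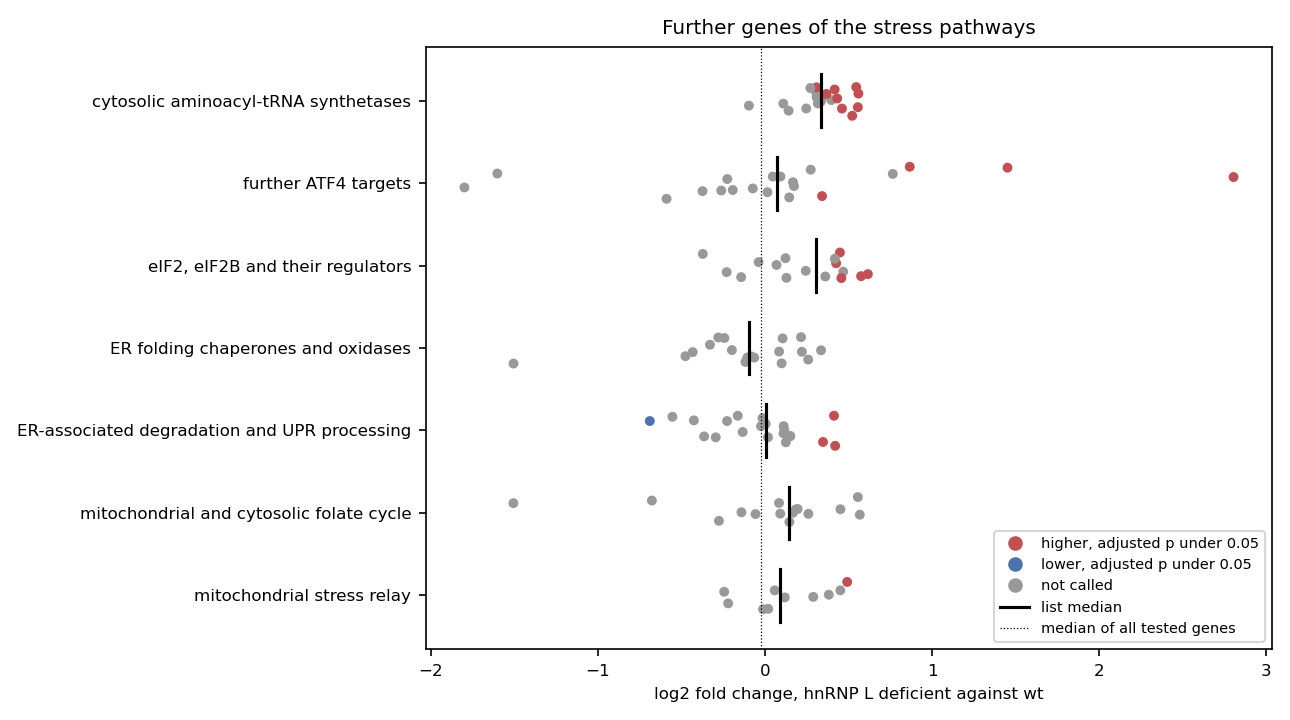
Log2 fold changes, hnRNP L deficient over wt, of the tested genes of 7 pathway lists, each point a gene (red, called higher; blue, called lower; grey, not called; vertical scatter carries no meaning), with a black bar for the list median and a dotted line for the median of all tested genes. The synthetases and the eIF2 and eIF2B list have medians of 0.34 and 0.30, while the ER chaperones have a median of -0.09 and no called gene on all 6 libraries.

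The promoters were searched for the motifs of the response, since called genes lay in some groups of the response and not in others. RefSeq promoters of GRCm38.p6, from 250 bases before to 50 bases after a start site, were matched for 31 of the 35 genes, in 37 promoters. The CARE element that ATF4 binds with C/EBP partners was searched as TGATGNAAN on both strands, and was found in 9 of 37 promoters, or 24.3%, against 3.95% of 32851 RefSeq promoters. The 35 genes were chosen in part as ATF4 targets and ER stress genes. Shares of this element and of the ER elements below are therefore not independent of that choice. The 30 bases around the match are shown for the called genes *Trib3* and *Nupr1* and for *Asns* and *Chac1*, which were higher without a call, and for *Pck2*, which was lower without a call. Sequences are in the direction of the gene, with the match in capitals.

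Trib3, chr2:152344028-152344057 (-): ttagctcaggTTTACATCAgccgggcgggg

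Nupr1, chr7:126625562-126625591 (-): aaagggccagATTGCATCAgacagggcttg

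Asns, chr6:7693213-7693242 (-): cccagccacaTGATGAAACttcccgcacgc

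Chac1, chr2:119351038-119351067 (+): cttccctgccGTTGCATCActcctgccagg

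Pck2, chr14:55540152-55540181 (+): agccttcaaaGTTACATCAgtatcttacag

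The first base of the match lay at 14 after the RefSeq start in *Trib3*, and at 111, 23, 194 and 104 bases before it in *Nupr1*, *Asns*, *Chac1* and *Pck2*, and in all but *Asns* the match was on the opposite strand. The other matches were in *Atf3*, *Slc7a11*, *Herpud1* and *Vldlr*. Of the 6 genes called higher that had a promoter, 2 held a match, and *Slc7a5* and *Cth* were not matched to a promoter. Genes with a match thus had fold changes in both directions, from the rise of *Trib3* to *Pck2* and *Vldlr* with values below wt.

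For the ER arm, the ER stress response elements were searched on both strands as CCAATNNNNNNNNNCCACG (ERSE) and as ATTGGNCCACG (ERSE-II), which are bound by ATF6 and XBP1 with NF-Y. Each was in a single promoter, shown because these genes overlapped between wt and hnRNP L deficient libraries. ERSE was found in *Hspa5*, beside 0.119% of all promoters, and ERSE-II in *Herpud1*, beside 0.0365%.

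Hspa5, chr2:34772020-34772049 (+): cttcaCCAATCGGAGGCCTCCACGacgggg

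Herpud1, chr8:94386368-94386397 (+): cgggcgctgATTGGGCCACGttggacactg

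A match is a run of letters and not a measured site, and its absence from these windows says nothing about sites elsewhere in the gene.

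Exon usage, the reads on an exon bin relative to the other bins of its gene, was a readout that the gene levels do not carry. It was tested with 3 wt embryos against hnRNP L deficient replicates 2 and 3, the bins of the remaining hnRNP L deficient library being not analysed here. Of 589 annotated bins of the 35 genes, 383 bins in 29 genes had a mean of at least 10 reads. None of the 383 was called by edgeR's diffSpliceDGE, beside 0.0288% of all 176996 tested bins, and 4 had an unadjusted p under 0.05, or 1.04% beside 1.03% of all tested bins. These were bin 30 of *Eif2ak4*, bins 14 and 23 of *Hspa5* and bin 1 of *Psat1*. In limma's diffSplice 6 of the 383 had an unadjusted p under 0.05, or 1.57% beside 2.67% of all tested bins, and 0 were called. Without wt replicate 2 the number at an unadjusted p under 0.05 was 10 of 385, or 2.6% beside 2.54% of all tested bins, without either hnRNP L deficient library it was 0, and 0 were called in each case. For *Eif2ak4*, which was lower in level, 0 of 42 tested bins were called. With 0.0288% of all bins called, this cannot show whether its exon usage changed. The stretch that IRE1alpha removes from the *Xbp1* mRNA is not a bin of its own in these counts, so its forms could not be counted apart.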

How the data were processed

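Gene counts of 6 libraries, 3 wt and 3 hnRNP L deficient, and exon bin counts of 5 were used. The authors aligned paired-end reads of stranded mRNA libraries to GRCm38 with TopHat2 2.0.10, counted them with HTSeq, and deposited whole-number counts without normalization, while the Ensembl release and strand option are not given in the sources used here. Between 39.8% and 44.7% of alignments per library were not unique and were not counted on genes, and rows that name no gene, 46.7% to 53.3% of all counts, were left out. Groups were taken from the sample labels.

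The 3 hnRNP L deficient and 3 wt libraries were compared in R 4.3.3 by edgeR 4.0.16 (TMM, default expression filter, robust quasi-likelihood test, Benjamini-Hochberg adjustment over 14396 genes). The standard error is the log2 fold change over the root of the F statistic. diffSpliceDGE was run on the exon bins that averaged 10 reads or more. Alternatives were DESeq2 1.42.0, limma 3.58.1 with voom and sample weights, other scalings and filters, a fold threshold of 2 and leaving out libraries, with DESeq2 on sets of 5 libraries added after seeing the data. Counts were simulated with 4-fold changes and 1 dispersion for all genes, which was lower than the common dispersion of the data. In these counts 99.5% of changed genes were recovered over 14237 genes. That share does not give the power for the stress response genes, whose largest rise was 3.805-fold. Depth gives a floor of 3 reads, which covers counting error only. The root common dispersion of 0.269 describes the spread between embryos.

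All 35 genes are named. Called genes, *Atf4*, the eIF2alpha kinases and the ER sensors are given per library, and up to 4 called and separated genes per pathway list and direction by size of change. Values of *Eif2b2*, *Eif2s1*, *Gcn1l1*, *Vars*, *Calr*, *Hsp90b1* and *Oma1*, the called progenitor markers and the chaperones called without wt replicate 2 were added after their values were seen. So were *Slc38a2*, *Map1lc3b*, *Nfil3*, *Jdp2* and the named granulocyte markers. The genes and lists were chosen with earlier results of these data known. Positions and exon lengths are from GENCODE M21, promoters from RefSeq.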

Additional observations from a re-analysis of the deposited data

How the results depend on the processing

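The 10 called genes kept their direction in every setting, and leaving out single libraries moved the calls most. The count of stress response genes was 14 higher and 6 lower with voom, 4 lower with DESeq2, 1 lower with median-of-ratios factors and with no filter, and 3 higher and 0 lower for a fold change above 2. With a library left out it ranged from 0 to 15 higher and from 0 to 7 lower. The pathway genes numbered 48 higher and 12 lower with voom, 4 lower with DESeq2, 3 lower with total counts and with a minimum of 1 CPM, 2 lower without robust estimation, and 2 higher and 0 lower for a fold change above 2, and ranged from 0 to 53 higher and from 0 to 13 lower with a library left out. Synthetases called higher numbered 16 with voom, 0 for a fold change above 2 and 0 to 18 with a library left out. eIF2B subunits numbered 0 for a fold change above 2 and 0 to 5 with a library left out. The counts of 0 arose in edgeR without wt replicate 3 or without any one hnRNP L deficient library, and the cause was not tested. Total counts moved the median of all genes to -0.096 and the calls of all genes to 1066 higher and 1751 lower. Over all tested genes voom called 17.9% higher and 19.3% lower, and a fold change above 2 left 1.56% and 5.16%.

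Of genes without a call, *Eif2ak1* turned to -0.016 with voom, -0.011 with total counts and between -0.044 and 0.13 with a library left out, *Ppp1r15a* to -0.078, -0.062 and, with a minimum of 1 CPM, -0.00739, with a range of -0.046 to 0.11, *Hspa5* to 0.20 with voom, 0.0044 with no filter and -0.18 to 0.17, *Herpud1* to 0.014 with voom and -0.098 to 0.049, *Eif2ak2* between -0.14 and 0.0045 and *Cbs* between -0.36 and 0.052. Of the other comparisons of single genes with their main value, 721 kept direction and side of the threshold, 55 gained a call and 127 lost it. No exon bin of the 35 genes was called in any setting. No paired analysis was possible because the replicate numbers only name the libraries and the first part of the embryo number, whose meaning is not stated, occurs in both groups for 1 pair only. Depth limits *Atf3*, *Aldh1l2* and *Gdf15*, which have at most 17 reads in a library, and *Nupr1*, *Chac1* and *Vldlr*, which were tested, had as few as 9, 14 and 12 reads in 1 library.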

Other observations

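Other genes of tRNA charging were taken as whole families after the values of the cytosolic synthetases were seen. Of 17 mitochondrial aminoacyl-tRNA synthetases, 2 were called higher and 1 lower, or 11.8% and 5.88%, near the 9.32% and 9.85% of all tested genes, with a median log2 fold change of 0.02. *Tars2* had 125, 110.0 and 130.5 CPM among wt and 171, 162 and 165 CPM among hnRNP L deficient embryos (log2 fold change 0.45, standard error 0.0829, edgeR adjusted p = 0.0195), and *Mars2* rose as well (log2 fold change 0.56, standard error 0.15, edgeR adjusted p = 0.0438). *Iars2* fell, with 254, 203 and 257 CPM among wt and 156, 158 and 156 CPM among hnRNP L deficient embryos (log2 fold change -0.60, standard error 0.10, edgeR adjusted p = 0.0159). In each of these 3 genes the groups did not overlap.

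Of the 3 non-catalytic partners of the multi-synthetase complex, *Aimp1* (log2 fold change 0.32, standard error 0.0742, edgeR adjusted p = 0.03) and *Eef1e1* (log2 fold change 0.55, standard error 0.13, edgeR adjusted p = 0.032) were called higher, and *Aimp2* was separated in the same direction without a call (log2 fold change 0.22, standard error 0.0712, edgeR adjusted p = 0.0666). Among all tested genes 9.32% were called higher. *Aimp2* shares exon bases with *Eif2ak1* on the opposite strand. The mitochondrial leucine synthetase *Lars2* was read at 163, 174 and 1191 CPM among wt and 192, 235 and 164 CPM among hnRNP L deficient embryos, so that wt replicate 3 stood apart from the other 5.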
